A study of Drosophila melanogaster with 3 samples.

Results

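The 9 genes CG11050, Ugalt, Acsf2, CG14100, gish, CG32772, Pdrg1, for and Fkbp14 lie at some of the highest peaks in a chromatin immunoprecipitation sequencing (ChIP-seq) map of the transcription factor Noc in Drosophila melanogaster larvae. They were chosen from the top of the list by signal value. Each is the gene whose transcription start site (TSS) is nearest to 1 of the 20 peaks of highest signal. The list has 7201 peaks that the authors kept by the irreproducible discovery rate (IDR), which asks how far peak ranks hold between replicates. The 9 are among 13945 protein-coding genes of the annotation. In the order named, their peaks rank 2, 3, 4, 5, 8, 9, 10, 19 and 20, with signal values of 7634, 6706, 5847, 5580.5, 4825, 4688, 4602, 3896 and 3895, on the authors' own scale and comparable only within a list. The remaining 11 of the 20 strongest peaks serve as a comparison, and all of them rank above for and Fkbp14. Signal alone thus does not set the 9 apart from these 11, and why the 11 were left out is not given in the sources used here. Because the 9 were taken from the peaks of highest signal, signal and rank are given as a description and carry no test. The lowest of the 9 is at Fkbp14, and the next peak below it has 3885 and lies 88 bp downstream of the TSS of CG11309. The only peak above the highest of the 9 has 7897 and lies nearest to cbt, which encodes a zinc finger transcription factor.

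The map came from 3 biological replicates of 1 group, whole larvae of a transgenic line that stably expresses Noc fused to GFP at its C terminus, with males and females pooled. What drives the fusion gene is not given in the sources used here. Chromatin was sheared by sonication to 200 to 800 bp and precipitated with an antibody against GFP, and the labels state an age of 48 days, longer than a larva usually lives. Each replicate has a list of 30000 peaks, the pooled libraries another 30000, and the lists hold no read totals, so the depth behind a peak is unknown. No untagged larvae were analysed here, so a peak shows GFP precipitation against the authors' control and not by itself binding by Noc. Larvae mix all tissues, and high occupancy in few cells cannot be told apart from lower occupancy in many.

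Noc (no ocelli) is a zinc finger protein of a small family that also holds Elbow B, and it acts with the corepressor Groucho. It is known from the patterning of eyes, legs and tracheae. A ChIP-seq summit is the base where the most precipitated fragments pile up, and it places the bound site more closely than the whole peak interval does. The 9 genes have unlike roles: 2 encode protein kinases, 2 encode factors of protein folding, and 2 act in transport or lipid metabolism. The other 3 bear only a CG number in the annotation used, and no role is given for them here.

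The bases under the strongest summits are shown because the content of G and C, which the choice did not use, was low in most of the 9 windows. Only 7 of the genes are shown, and this content does not set the 7 apart. Fkbp14 (21.8%) and Pdrg1 (27.7%) are left out, while Ugalt, with the highest content (34.7%), is included. Each run holds the summit base with 50 bp to each side, read 5′ to 3′ along the strand of the gene, from the RefSeq sequence of build dm6. Capitals mark TTAAA on either strand (TTTAA where it lies on the other), and matches that overlap or touch run together. This word of 5 letters was picked after the windows were seen, as 1 of 5 such words present in all 9.
CG11050, chr2L:6612658-6612758, plus strand: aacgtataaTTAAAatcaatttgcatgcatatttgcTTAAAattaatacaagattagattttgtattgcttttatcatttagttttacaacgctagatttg
Ugalt, chrX:2703835-2703935, minus strand: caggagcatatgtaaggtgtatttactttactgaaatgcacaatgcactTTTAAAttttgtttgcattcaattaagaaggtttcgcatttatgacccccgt
Acsf2, chr2L:5342558-5342658, minus strand: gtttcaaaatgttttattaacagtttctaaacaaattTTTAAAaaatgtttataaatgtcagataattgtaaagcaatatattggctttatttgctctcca
CG14100, chr3L:19590565-19590665, minus strand: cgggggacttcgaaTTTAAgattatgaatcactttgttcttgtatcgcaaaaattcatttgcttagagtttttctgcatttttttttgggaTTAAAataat
gish, chr3R:16280683-16280783, plus strand: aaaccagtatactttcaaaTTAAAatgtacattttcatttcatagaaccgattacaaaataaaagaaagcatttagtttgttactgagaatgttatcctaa
CG32772, chrX:4910323-4910423, plus strand: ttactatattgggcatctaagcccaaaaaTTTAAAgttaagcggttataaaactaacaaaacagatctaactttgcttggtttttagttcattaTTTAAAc
for, chr2L:3655781-3655881, minus strand: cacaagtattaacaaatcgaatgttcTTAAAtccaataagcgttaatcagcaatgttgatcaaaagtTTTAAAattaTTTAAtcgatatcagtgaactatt
The runs of CG11050, gish, CG32772 and for lie in introns or the body of the gene, and those of Ugalt, Acsf2 and CG14100 lie before or across the start site. The run of Ugalt includes 18 bases of the transcript's leader, and the other 6 hold no untranslated exon bases.

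The windows around the 9 summits were rich in A and T. Content of G and C was 22.8% at CG11050, 34.7% at Ugalt, 21.8% at Acsf2, 29.7% at CG14100, 24.8% at gish, 27.7% at CG32772, 27.7% at Pdrg1, 25.7% at for and 21.8% at Fkbp14. The mean was 26.3% over the 9 windows (SD over windows 4.20) and 26.1% over the other 11 strongest peaks, against 36.5% over all 7201 IDR windows (SD over windows 9.92). The 9 genes and the other strongest peaks thus had nearly the same mean, and both lay below the mean of the list. Further down the list the mean was 28.9% at IDR ranks 21 to 100, 30.9% over the next 900 ranks and 37.5% at weaker ranks. The Ugalt window is the least extreme, since 43.5% of IDR windows have a lower content, against 4.58% for Acsf2 and for Fkbp14.

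Away from the summit the mean with both sides averaged was near that of the list, though not on each side or at every gene. Between 200 and 300 bp from the summit, both sides together, the mean was 42.7% for the 9 genes and 42.6% for the other 11 peaks, against 42.1% for all IDR summits. By bins of 20 bp, the mean of the 9 genes was 35.6% to 41.1% on the upstream side and 42.8% to 52.2% on the downstream side. All IDR summits, read along the plus strand, had 41.5% to 42.5% in these bins. The difference between sides was not tested. With both sides averaged, Acsf2 is the exception, with 26.7% at that distance and 24.4% within 100 bp of the summit. The other 8 genes had 40.6% to 51.0% at that distance, but single sides could be low there too. In the 20 bp bin centred 230 bp upstream, Acsf2 had 0%, Ugalt 20% and CG14100 25%. In the bin 230 bp downstream they had 45%, 50% and 65%. CG11050, CG32772, Pdrg1 and for were instead higher in the upstream bin of this pair. Windows placed on the summits of each replicate gave means over the 9 genes of 26.8%, 26.8% and 25.9%, or 26.5% ± 0.572 (SD, n = 3). All windows were read from 1 reference sequence, so this SD reflects only shifts of the summits between replicates. Promoter and intronic summits were alike in this: the mean was 26.7% at the 6 promoter summits of the 9 genes and 25.4% at their 3 intronic summits, against 37.2% at all IDR promoter summits and 35.9% at other IDR summits.

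**Figure D1:**
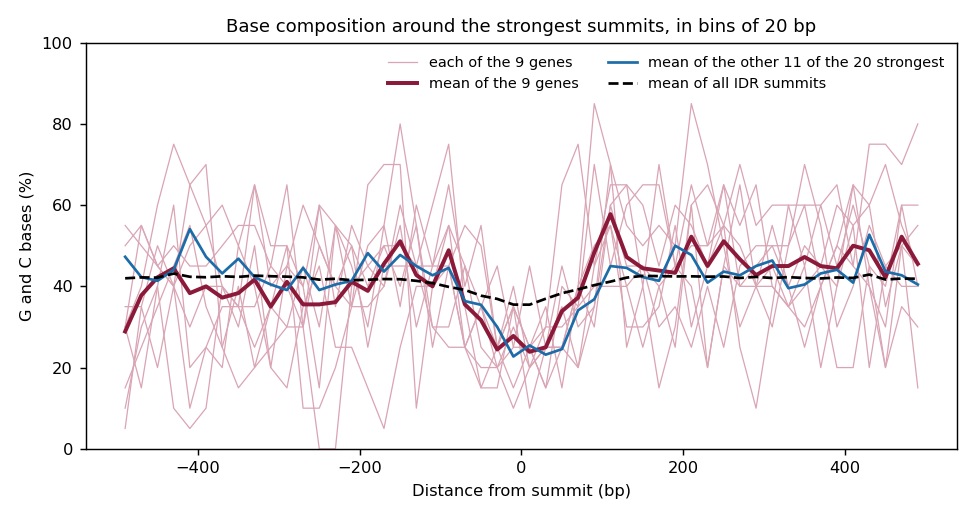
Share of G and C bases (%) in bins of 20 bp against distance from the summit (bp), for each of the 9 genes along its own strand (thin lines), their mean, the mean of the other 11 of the 20 strongest peaks and the mean of all 7201 IDR summits, the last 2 sets along the plus strand. Both means of strong peaks drop below the dashed line near the summit and average 42.7% (9 genes) and 42.6% (other 11) between 200 and 300 bp from it.

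Of 10 listed binding words, none occurred in more than 4 of the 9 windows. GATAA, on either strand as for every word here, occurred in 4 of the 9 windows (CG11050, Acsf2, gish and Pdrg1) and in 5 of the other 11, against 29.6% of all IDR windows. TATAAA occurred in 3 of 9 (Acsf2, CG32772 and Fkbp14) and in 7 of the other 11, against 19.4% of all. The homeodomain core TAATTA occurred at CG11050 alone of the 9 windows, against 9.72% of all. The GAGA word GAGAG occurred only at Acsf2, against 11.8% of all. The AP-1 word, TGANTCA, occurred only at CG14100, against 2.53% of all. In none of the 9 windows were the dinucleotide repeat CACACA (present in 7.55% of all), the E-box CACGTG (in 0.833% of all), the Sp1-type word GGGNGGG (in 2.25% of all), the Zelda word CAGGTA (in 1.78% of all) and the DNA replication-related element TATCGATA (in 0.597% of all). Such a match is a run of letters and not a shown binding site. Its lack says only that these letters are not in this window. The shares of all IDR windows are not matched for base content. Mean G and C content was 36.5% there, 26.3% in the 9 windows and 26.1% in the other 11.

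Besides TTAAA, which 46.1% of all IDR windows hold, 4 further words of 5 letters occurred in all 9 windows, and 4 of the 5 consist of A and T alone. These are AAAAT (in 61.7% of all IDR windows), AAATA (in 60.3% of them), ATTTA (in 52.3% of them) and CAAAA (in 47.4% of them). Among the other 11 strongest peaks, 9 windows have TTAAA while 2 have CAAAA. The words were picked because all 9 windows hold them, so their count in the 9 windows is no finding.

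The strongest summits fell into 2 kinds by position. Of the 9, 6 were promoter summits, defined as within 500 bp of an annotated TSS, and 3 were intronic, where 49.0% of all IDR summits are promoter summits. Because the genes were named as the nearest ones, nothing further is read from that count. All 6 promoter summits lay upstream of the TSS, with a median of −138 bp (negative values are upstream), as did all 7 promoter summits among the other 11 peaks, with a median of −161 bp. Over all 3526 IDR promoter summits 63.8% lay upstream, with a median of −79 bp. In the replicate lists, shortened to the length of the IDR list, 63.0%, 71.2% and 60.2% of promoter summits lay upstream. The 3 intronic summits lay 1021 bp (CG11050), 1271 bp (CG32772) and 1122 bp (for) downstream of the nearest TSS of the gene.

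The strongest peak of every one of the 9 genes was near the top in every replicate. Mean ranks over the 9 genes were 9.44, 11.2 and 9.67 in replicates 1, 2 and 3, with an overall mean of 10.1 (SD of the replicate means 0.969, n = 3), and the ranks reached no further down than 26. The replicates fed the pooled call that gave the signal, so these ranks are not independent of the choice. For each gene the 3 replicate summits fell within 1 to 40 bp of each other. The largest distance from the IDR summit to the nearest replicate summit had a median of 11 bp for the 9 genes and 17 bp for the other 11 peaks, against 50 bp for all IDR summits. All 9 summits had a partner within 100 bp in all 3 full replicate lists, where 78.6% of IDR summits do. They also had one in all 3 lists shortened to the IDR length, where 49.7% do. Like the ranks, these partners and distances are not independent of the choice by pooled signal. Nearly all IDR peaks are weaker than the 9, so nothing further is read from either contrast.

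**Figure D2:**
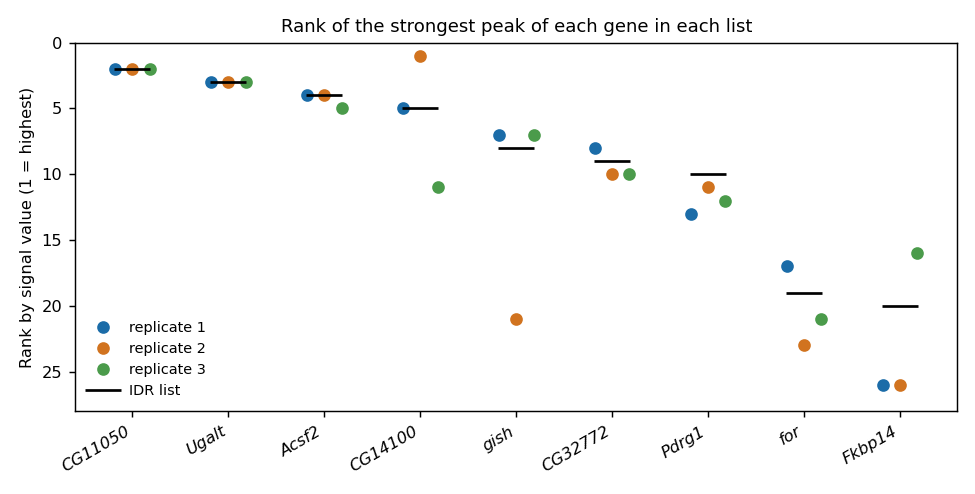
Rank by signal value (vertical axis, 1 is the highest, at the top) of the strongest peak of each of the 9 genes in the lists of replicates 1, 2 and 3 (dots) and in the IDR list (bars). CG11050 and Ugalt hold ranks 2 and 3 in every list, CG14100 ranges over 1 to 11 and gish over 7 to 21.

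The kinase genes gish and for are the longest of the 9, with several start sites each. gish (gilgamesh, FBgn0250823), on chr3R:16272452-16304768, plus strand, encodes a casein kinase 1 of the gamma type and is known from the migration of glia. Its strongest peak had signal values of 1965, 1184 and 1697 in replicates 1, 2 and 3, and ranks of 7, 21 and 7. Replicate 2 placed it lower in its list than the other two did. The summit lay 8281 bp into the gene and 156 bp upstream of the third of 4 start sites, at −159 ± 7.94 bp in the replicates (SD, n = 3). Near the first and the fourth TSS, within 500 bp, there was a summit only in replicate 3, of signal value 17.5 and 21.9. The second TSS had a pooled summit of 186 and none in replicate 2. The strongest peak thus stood at the same internal start site of gish in all 3 libraries. Of 3 IDR summits at gish, the other 2 were intronic, with signal values of 256 and 277 against 4825 for the strongest.

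for (foraging, FBgn0000721), on chr2L:3622074-3656953, minus strand, encodes a cGMP-dependent protein kinase known from natural variation in how far larvae travel while feeding. The peak of highest signal had signal values of 1684, 1143 and 1322 in replicates 1, 2 and 3 and ranks of 17, 23 and 21. The summit lay in an intron 1122 bp downstream of the first of 4 start sites, and 1129 ± 3.61 bp in the replicates (SD, n = 3). That first TSS itself had only a weak pooled summit, of signal value 120 and rank 13377, with none in replicate 2, and the second TSS had one of 81.7. The third and the fourth start site each had an IDR promoter summit, at −165 bp with 534 and at −348 bp with 1633. The summit at the fourth start site ranks 241 of 7201 and was found at ranks 175, 402 and 262 in the replicates. At the other genes of the 9 the second IDR summit, where there was one, ranks 1224 or lower, so for alone had a second peak of high rank.

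The locus of for also held the most summits. Counting the body and flanks of 5 kb, for had 7 IDR summits, all in the body, and 27 in the pooled list, with 23, 23 and 29 in replicates 1, 2 and 3. As many or more IDR summits occurred at 1.86% of protein-coding genes, a share that does not allow for the length of for, 34880 bp. The remaining 4 IDR summits of for were intronic, with signal values of 447, 309, 295 and 228. The pooled signal at the strongest summit was 2.39 times that of the next, against 6.60 or more at the 7 others of the 9 genes that have a second pooled summit.

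The folding factors Fkbp14 and Pdrg1 had peaks at promoters. Fkbp14 (FBgn0010470), on chr2R:21487167-21497929, minus strand, encodes a peptidyl-prolyl isomerase of the family that binds FK506. Its strongest peak had signal values of 1528, 1077 and 1376 in replicates 1, 2 and 3 and ranks of 26, 26 and 16. The summit lay 120 bp upstream of the second of 4 start sites, at −127 ± 6.51 bp in the replicates (SD, n = 3), and 599 bp downstream of the first. The first TSS had no summit within 500 bp in any of the 5 lists. A weaker IDR summit, of 590, lay 362 bp downstream of the third TSS and only 918 bp from the strongest. In the upstream flank a summit of 566 lay at −174 bp of TAF1C-like, named for a human factor of RNA polymerase I. It lay between that start site and the start site of MESK2 on the opposite strand. Another weak summit, of 224, was intronic.

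Pdrg1 (FBgn0033467), on chr2R:9959119-9959732, minus strand, is the shortest of the 9 genes at 614 bp and encodes a prefoldin-like protein, known in human cells as a subunit of a chaperone complex with URI. Signal values of the strongest peak were 1783, 1461 and 1480 in replicates 1, 2 and 3, with ranks of 13, 11 and 12. The summit lay 167 bp upstream of the only TSS of Pdrg1 and, on the opposite strand, 179 bp upstream of the nearest TSS of Pal1, inside the annotated body of Pal1. Pal1 encodes an enzyme of neuropeptide amidation. The 2 genes overlap and their distances to the summit are nearly equal, so the peak could be named for either. The replicate summits varied most here, at −191, −207 and −167 bp from Pdrg1. The 2 other IDR summits counted for Pdrg1 are nearest to Mef2, a transcription factor of muscle, 143 bp downstream of a TSS with 533 and 3316 bp downstream with 479.

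Ugalt and Acsf2 act in transport and metabolism. Ugalt (FBgn0024994), on chrX:2701124-2703852, minus strand, encodes the transporter that brings UDP-galactose into the Golgi. Its strongest peak had signal values of 2595, 1938 and 2312 in replicates 1, 2 and 3 and held rank 3 in each. The summit lay 33 bp upstream of the first of 2 start sites, at −34.3 ± 6.11 bp in the replicates (SD, n = 3), the closest to a TSS of the 9. The start site of eIF2Bbeta, which encodes a subunit of a translation initiation factor, lay 686 bp away on the opposite strand. The nearest other IDR summit was 28448 bp away and the nearest other pooled summit 666 bp away. The pooled list held 6 summits at Ugalt, and the strongest was 37.5 times the next, with 34.8 ± 6.51 in the replicates (SD, n = 3). None of the weaker pooled summits lay in the body of Ugalt. The next, of 179, lay in the upstream flank, 4688 bp from the strongest, and nearest to the start site of CG2681, which is 4799 bp from the strongest. The ratio thus sets the Ugalt peak against a summit at a neighbour.

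Acsf2 (FBgn0031703), on chr2L:5339132-5342234, minus strand, belongs to the acyl-CoA synthetases, enzymes that activate fatty acids. The strongest peak had signal values of 2300, 1894 and 1729 in replicates 1, 2 and 3 and ranks of 4, 4 and 5. The summit lay 374 bp upstream of the only TSS, the farthest of the 6 promoter summits, and its replicate summits were at −374, −374 and −373 bp. This was the tightest position of the 9. nompC, which encodes a mechanosensory channel, starts 3592 bp from the summit on the opposite strand. All 3 other IDR summits counted for Acsf2 lay in the downstream flank, nearest to fusl, which encodes a membrane protein of synapses: 704 at −177 bp, 252 at −379 bp and 400 in an intron of fusl. None lay in the body of Acsf2.

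The 3 genes with only a CG number held ranks 2, 5 and 9. CG11050 (FBgn0031836), on chr2L:6611011-6617117, plus strand, had the highest of the 9 peaks, with signal values of 3032, 2043 and 2669 in replicates 1, 2 and 3 and rank 2 in each. The summit was intronic, 1021 bp downstream of the third of 3 start sites and 1024 ± 5 bp in the replicates (SD, n = 3). Its start sites carried far less: the IDR summit at −126 bp of the first TSS had 251, and pooled summits near the second and the third had 191 and 176. The remaining IDR summit, of 221, was intronic. The strongest pooled signal was 30.4 times the next, with 25.3 ± 4.23 in the replicates (SD, n = 3).

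CG14100 (FBgn0036889), on chr3L:19589072-19590524, minus strand, stood alone. Its strongest peak had signal values of 2272, 2132 and 1500 in replicates 1, 2 and 3 and ranks of 5, 1 and 11, the highest peak of replicate 2. The summit lay 91 bp upstream of the only TSS, at −85 ± 8.72 bp in the replicates (SD, n = 3), and 158 bp from the 3′ end of ash1, a trithorax group gene on the same strand that encodes a histone methyltransferase. It was the only IDR and the only pooled summit in the gene and its 5 kb flanks. The nearest other IDR summit was 21705 bp away and the nearest other pooled summit 11715 bp away. Replicates 1, 2 and 3 listed 2, 1 and 4 summits there, and the strongest was 69.2 times the next in replicate 1 and 33.2 times in replicate 3.

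CG32772 (FBgn0052772), on chrX:4909102-4915161, plus strand, had signal values of 1894, 1489 and 1501 in replicates 1, 2 and 3 and ranks of 8, 10 and 10. The summit lay in an intron between the 2 start sites, 1271 bp downstream of the first and 2008 bp upstream of the second, and 1262 ± 1.73 bp from the first in the replicates (SD, n = 3). The first TSS had an IDR summit of 313 at 48 bp, and the second only a pooled summit of 201. As at CG11050 and for, the highest signal of the locus stood in an intron and not at a start site. The other 2 IDR summits counted for CG32772 lay in the downstream flank at Hgsnat, named for a human lysosomal acetyltransferase. They had 228 at −97 bp and 387 at 872 bp. The summit of 228 lay between the start sites of Hgsnat and CG4041, which are on opposite strands.

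**Figure D3:**
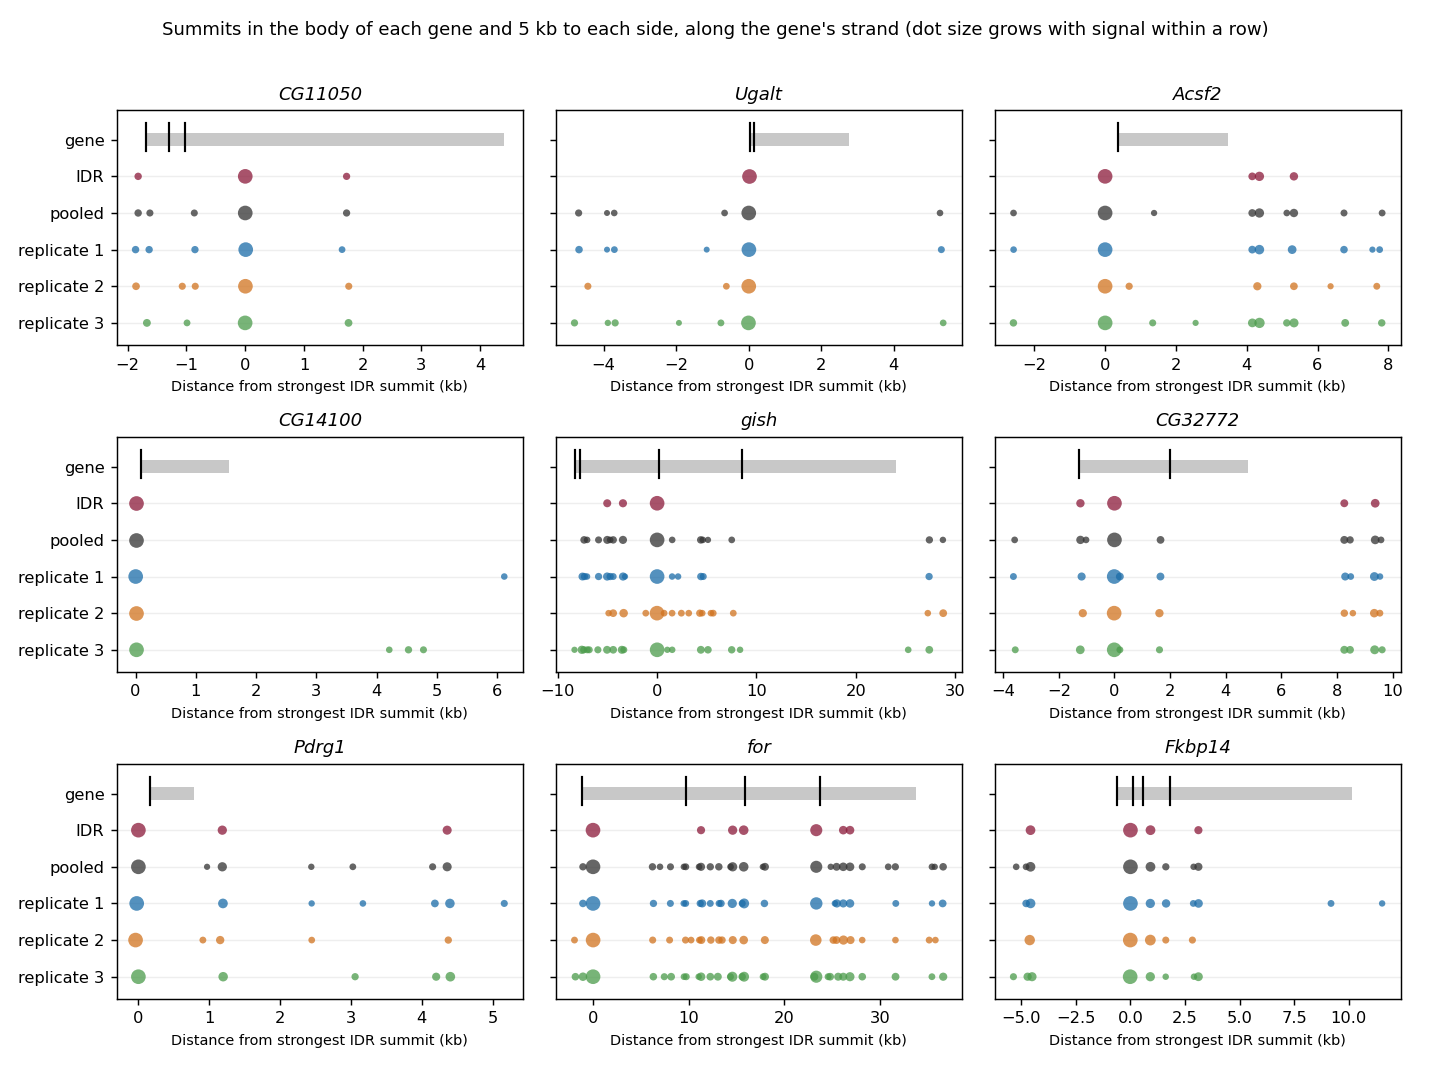
Summits at each of the 9 genes, flanks of 5 kb included, by distance from the strongest IDR summit in kb along the strand of the gene, in the IDR, pooled and 3 replicate lists. Grey bars are gene bodies, black ticks are start sites, and dot size grows with signal value within a row. The largest dot of each row stands at or near 0, and the row of for holds the most summits (7 IDR and 27 pooled).

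Over bodies and flanks of 5 kb, the 9 genes together held 30 IDR and 87 pooled summits. The replicate lists held 84, 71 and 95, or 83.3 ± 12 (SD, n = 3), and 27.7 ± 2.52 (SD, n = 3) when shortened to the IDR length. Each of the 9 genes has at least 1 IDR summit in this window by the way it was chosen, where 56.1% of protein-coding genes have one. The median protein-coding gene has 1 IDR summit and 3 pooled summits. Ugalt and CG14100 had 1 IDR summit, CG11050, gish and Pdrg1 had 3, Acsf2, CG32772 and Fkbp14 had 4 and for had 7. The numbers of IDR summits at 8 of the 9 thus stayed between 1 and 4, under the 95th percentile of protein-coding genes, which is 5. The counts depend on the flank: with 10 kb to each side Pdrg1 had 6 and gish and Fkbp14 had 5, and with 2 kb CG32772 and Pdrg1 had 2.

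Of the 21 weaker IDR summits, 12 lay in the bodies of the 9 genes, 7 in the downstream flanks and 2 in the upstream flanks. They comprised 10 promoter and 11 intronic summits. For 13 the nearest TSS was that of the gene itself and for 8 it was that of a neighbour. In all 3 full replicate lists 17 of the 21 had a partner within 100 bp, and 11 of the 21 in the shortened lists, next to the 78.6% and 49.7% of all IDR summits.

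**Figure D4:**
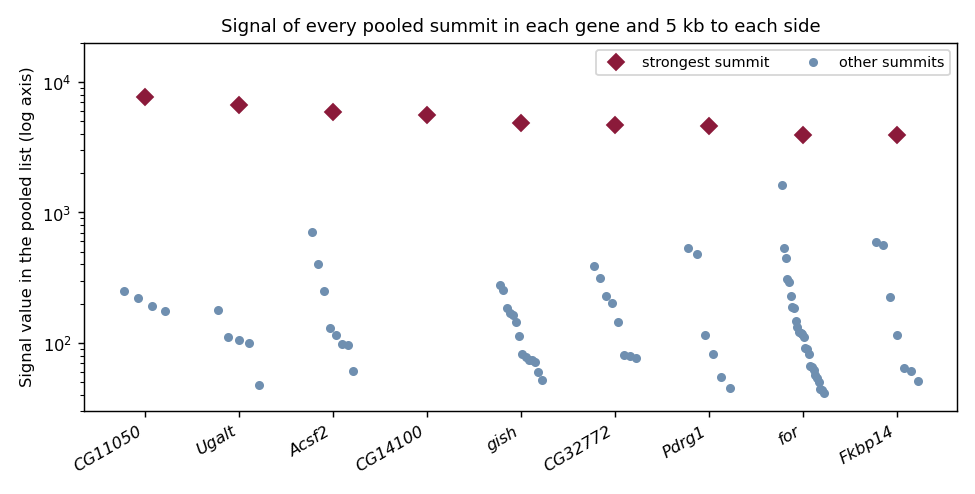
Signal value of every pooled summit (log axis) at each of the 9 genes and their 5 kb flanks, with the strongest summit of each gene as a diamond and the others as dots spread sideways. The diamonds lie between 3895 and 7634, no other summit exceeds the 1633 at for, and CG14100 has no second summit.

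The gap between the strongest summit and the next, flanks included, was wide at most of the 9 genes. At CG32772, Pdrg1 and Acsf2 the next pooled summit lay in the downstream flank, nearest to a start site of Hgsnat, Mef2 and fusl respectively. At Ugalt it lay in the upstream flank, nearest to the start site of CG2681. The ratio in the pooled list was 17.4 at gish, 12.1 at CG32772, 8.64 at Pdrg1 and 8.30 at Acsf2, beside the values given for the other genes. In the replicates it was 15.4 ± 1.76 at gish, 11.8 ± 1.42 at CG32772, 9.75 ± 4.73 at Pdrg1, 9.59 ± 5.89 at Acsf2, 6.65 ± 2.36 at Fkbp14 and 2.46 ± 0.419 at for (SD, n = 3 each). Over the 9261 protein-coding genes with at least 2 pooled summits the median ratio was 1.69 and the 95th percentile 6.53. The 9 genes were chosen for a high strongest signal, which enters this ratio, and the ratio was added after the data were seen, so no more than the values is drawn from it.

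The 9 genes have 22 annotated start sites in all. An IDR summit lay within 500 bp of 12 of them, a pooled summit near 19 and a summit in every replicate near 17. All 9 genes had an IDR summit within 500 bp of at least 1 of their own start sites, where 24.5% of protein-coding genes have one. It was the strongest summit at 6 genes and a weaker one at CG11050, CG32772 and for. The choice of genes nearest to strong peaks favours such a summit, so nothing further is read from that count. Of the 6 genes with 2 or more start sites, gish and Fkbp14 had the strongest summit at an internal start site.

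Intervals of the 9 peaks were wider than usual in the list, between 515 and 982 bp with a median of 768 bp. The other 11 strongest peaks had a median of 656 bp, and all IDR peaks had 364 bp. The 9 were chosen by signal, and whether width goes with signal was not tested, so the contrast is not read further. The widest were CG32772 at 982 bp and gish at 912 bp, and the narrowest CG14100 and Pdrg1 at 515 bp each. In the replicates the median over the 9 genes was 691, 421 and 769 bp, with replicate 2 below the other two. Many intervals have 1 set width, which is 430 bp for 71.5% of pooled peaks. In replicates 1, 2 and 3 it is 420, 400 and 420 bp for 79.7%, 92.6% and 76.0% of the peaks. In the IDR list 430 bp is also the most common width, but for 16.4% of peaks, and widths go down to 108 bp. How far the calling set the widths was not tested.

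Relatives of 6 of the 9 genes were looked up by family. Over the 6 families, 23 of 60 genes had an IDR promoter summit, and without those of the 9 it was 17 of 54, which is 31.5% where 24.5% of all protein-coding genes have one. No test of the lists was run. The strongest relative was CG6178, of the family of Acsf2, with 2543 at rank 82 against 5847 at Acsf2.

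By family, 9 of 21 acyl-CoA synthetase genes had a promoter summit, led after Acsf2 by CG6178 and by AcCoAS with 966. Of the nucleotide sugar transporters it was 4 of 9, with senju at 769 and CG14971 at 337 beside Ugalt. Among kinases that depend on cyclic nucleotides it was 4 of 8, with Pka-C1, a catalytic subunit of protein kinase A, at 316 and Pka-R2, a regulatory subunit, at 273 beside for. The casein kinase 1 family had 2 of 7, gish and CkIalpha at 245. The FK506-binding family had 2 of 7, Fkbp14 and Fkbp12 at 384, and the prefoldin and URI list had 2 of 8, Pdrg1 and mgr, a prefoldin subunit, at 1079. In each of the 6 families the highest promoter signal value was thus that of 1 of the 9 genes, which their choice by signal makes likely.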

How the data were processed

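The deposited data are narrowPeak lists of 3 anti-GFP libraries from larvae. Per the text notes deposited beside them, peaks were called by the authors for each library and for the pooled libraries against a control, and the IDR list was drawn from those lists (caller and aligner: not given in the sources used here). Per the labels the build is dm6, and every peak fitted within its chromosome lengths. The signal value of a peak is the authors' deposited score. Its scale is not stated in the labels or headers, so it was used within a list alone. A check found that IDR peaks are the 7201 pooled peaks of highest signal. The −log10 q-value the authors deposited is 4.27 for every IDR peak and was not used for ranking.

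Summits are peak start plus the deposited offset, in 1-based coordinates. Genes and start sites came from Ensembl release 115 for the same assembly, and sequence from RefSeq. Scripts ran in Python 3.11.15 with numpy 2.4.6, pandas 2.3.3 and matplotlib 3.10.9, and the distance code was tested on simulated data. Genes named beside the 9 are those nearest to, or holding, a counted IDR summit, and the neighbours in rank. Up to 2 per family list with the highest promoter signal besides the 9 are also named. In addition eIF2Bbeta, CG2681, nompC, ash1, MESK2 and CG4041 are named, as close neighbours chosen after their values were seen. The 9 genes, families and words were chosen with earlier results of these data known. Listed families had 0 symbols without a match. There is 1 group, so values are mean ± SD over n = 3 biological replicates, with no test. Alternatives were other flanks, promoter and matching distances, windows, list lengths, replicate lists and leaving out each replicate.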

Additional observations from a re-analysis of the deposited data

How the results depend on the processing

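The 9 genes' sum of IDR summits (30) was 26 with 2 kb flanks, 37 with 10 kb, 29 with intervals counted once and 26 to 29 with a replicate left out. Promoter summits among the strongest numbered 5 at 250 bp and 6 at 1000 bp. The median distance to a start site (167 bp) was 191 and 207 bp with the summits of replicates 1 and 2, 179 to 199 bp with a replicate left out, and 599 bp to the 5′ end of the gene record, which turns gish to 8281 bp and Fkbp14 to 599 bp downstream. Mean G and C content (26.3%) was 25.3% within 25 bp and 33.8% within 100 bp of the summit, and median width (768 bp) was 421 bp in replicate 2; the cause of the replicate differences was not tested. With partners counted in all 3 full lists, 26 of 30 IDR summits were matched, 19 within 50 bp, 29 within 250 bp and 20 in shortened lists. Mean rank (10.1) was 9.56 to 10.4 and bound family genes (23) were 22 to 23 with a replicate left out. Among values for single genes and words, 128 stayed within the spread and 26 moved beyond it, among them Pdrg1 (6 IDR summits) and gish (5) with 10 kb flanks and CG32772 (2) with 2 kb. Those that stayed include words found in none of the 9 windows at any setting, and TTAAA, picked because all 9 hold it. Those that moved include shifts as small as −374 to −373 bp at Acsf2. The tally is thus no measure of how stable the results are. The median ratio of the strongest summit to the next (10.4) was 14.4 in replicate 2. A replicate left out had still fed the pooled call. The scale of the signal is not given in the sources used here, 3 libraries of 1 group allow no comparison between conditions, and the control and read depth were not analysed here. No paired analysis was possible because there is 1 group.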
